A study of Mus musculus with 9 samples.

Results

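Ribosome footprints on 10 genes of MHC class I antigen presentation were followed across 3 immortalized mouse striatal cell lines. The genes were taken from the deposited count table by their symbols, H2-K1, H2-D1, B2m, Tap1, Tap2, Tapbp, Nlrc5, Psmb8, Psmb9 and Psmb10, and all 10 were found among its 36410 rows. The control line, STHdhQ7/Q7, has 7 glutamines encoded by both Htt alleles. HD-het cells, STHdhQ7/Q111, combine one 7-glutamine allele with a knock-in allele of 111 glutamines, and HD-homo cells, STHdhQ111/Q111, have 111 on both. Each line was cultured in 3 independent rounds that gave 3 libraries, so the spread is that between cultures of one line. Genotype and line cannot be told apart, because each genotype is one immortalized line. All cells received cycloheximide for 10 min before lysis, and the footprints came from the 80S monosome fraction. A footprint count rises with both the amount of mRNA and its ribosome load, and these were not separated here. In bulk libraries, more cells that use a gene and more footprints per cell cannot be told apart either.

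Class I molecules show short peptides from the cell's own proteins to CD8 T cells. The proteasome cuts proteins into peptides, the TAP1 and TAP2 transporter carries them into the endoplasmic reticulum, tapasin (Tapbp) holds an empty class I molecule beside that transporter, and a heavy chain such as H2-K1 or H2-D1 with the light chain B2m takes the peptide to the surface. Interferons raise most of these genes, NLRC5 is a transcriptional coactivator of them, and PSMB8, PSMB9 and PSMB10 replace the catalytic subunits PSMB5, PSMB6 and PSMB7 to form the immunoproteasome. Neurons are known for low class I levels.

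The promoters of the heavy and light chains and of Tap1 are shown because these genes rose in both mutant lines, and that of H2-T23, a nonclassical class I chain, because its direction split between the lines. Each is 250 bases before to 50 after a RefSeq gene start in GRCm38.p6, written 5′ to 3′ on the gene's strand. Capitals mark the motifs searched on both strands: GAAANNGAA, the core of an interferon-stimulated response element, and the reversed order GAANNGAAA, which was added after the sequences were seen; TTCNNNGAA, a gamma-activated site; GGGNNTTCC, a kappa B site; TGACG, the core of a cyclic AMP response element; and CCAAT, a Y box. The windows lie at chr17:34000298-34000597 (H2-K1, minus strand, the first of 2 starts in the table), chr17:35262844-35263143 (H2-D1, plus strand), chr2:122147437-122147736 (B2m, plus strand), chr17:34187306-34187605 (Tap1, plus strand) and chr17:36032652-36032951 (H2-T23, minus strand).
H2-K1: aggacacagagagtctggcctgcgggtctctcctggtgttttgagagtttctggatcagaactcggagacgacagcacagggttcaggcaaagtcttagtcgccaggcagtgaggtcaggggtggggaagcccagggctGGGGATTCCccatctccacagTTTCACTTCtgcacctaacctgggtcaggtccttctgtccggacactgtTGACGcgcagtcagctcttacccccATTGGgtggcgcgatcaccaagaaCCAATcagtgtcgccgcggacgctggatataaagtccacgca
H2-D1: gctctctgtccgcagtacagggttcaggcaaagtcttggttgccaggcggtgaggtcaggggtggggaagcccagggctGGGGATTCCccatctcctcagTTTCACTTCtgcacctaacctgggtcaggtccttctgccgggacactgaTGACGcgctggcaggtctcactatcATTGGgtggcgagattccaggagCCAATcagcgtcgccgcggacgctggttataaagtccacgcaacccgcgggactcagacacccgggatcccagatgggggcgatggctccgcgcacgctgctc
B2m: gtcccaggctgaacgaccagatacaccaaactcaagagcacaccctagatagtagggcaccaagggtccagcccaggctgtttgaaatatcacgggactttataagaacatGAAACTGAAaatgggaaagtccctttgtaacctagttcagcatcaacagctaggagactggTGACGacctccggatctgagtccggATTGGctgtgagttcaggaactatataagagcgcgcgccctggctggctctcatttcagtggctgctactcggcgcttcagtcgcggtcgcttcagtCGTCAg
Tap1: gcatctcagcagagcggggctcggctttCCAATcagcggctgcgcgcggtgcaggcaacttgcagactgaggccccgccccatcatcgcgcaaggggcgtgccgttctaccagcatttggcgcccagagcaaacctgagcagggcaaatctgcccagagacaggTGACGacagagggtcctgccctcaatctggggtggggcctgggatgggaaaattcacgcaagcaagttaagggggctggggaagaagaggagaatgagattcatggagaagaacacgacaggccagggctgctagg
H2-T23: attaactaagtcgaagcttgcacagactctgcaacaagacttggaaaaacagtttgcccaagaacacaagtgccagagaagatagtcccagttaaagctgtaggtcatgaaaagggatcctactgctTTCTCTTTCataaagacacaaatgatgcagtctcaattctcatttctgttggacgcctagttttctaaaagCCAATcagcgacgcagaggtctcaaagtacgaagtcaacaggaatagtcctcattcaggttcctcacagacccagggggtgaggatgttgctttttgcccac

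Promoters were found for 8 of the 10 genes, all but Nlrc5 and Tap2. H2-K1 and H2-D1 both hold the same GGGGATTCC run followed by TTTCACTTC, one GGGNNTTCC match and one GAANNGAAA match, and then TGACG and a pair of CCAAT boxes in the same order. B2m holds GAAACTGAA, the one GAAANNGAA match among the 8 windows. TGACG was present in 5 of the 8 windows (H2-K1, H2-D1, B2m, Tap1 and Psmb9), against 20.8% of all 32851 promoters in the table, and CCAAT in 6 of 8 against 37.4%. GGGNNTTCC stood in 2 of 8 against 5.82%, GAANNGAAA in 2 of 8 against 7.52%, GAAANNGAA in 1 of 8 against 8.56%, and TTCNNNGAA in 1 of 8, Psmb8, against 8.30%. Since GAANNGAAA was added after the sequences were seen, its count against all promoters is no support. The Tap1 and Psmb9 genes are divergent with 225 bases between them, so their windows share 275 bases and are not independent. The H2-K1 and H2-D1 windows, with the same motifs in the same order, are not independent of each other either. A motif match is a string of letters and not a measured binding site.

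Of the set, 7 genes lie on chromosome 17 in the MHC region or beside it. Tapbp is at chr17:33919478-33929290 and H2-K1 at chr17:33996012-34000619. Psmb9 (chr17:34182030-34187330), Tap1 (chr17:34187556-34197225), Psmb8 (chr17:34198195-34201454) and Tap2 (chr17:34204479-34216321) stand in a row, with 225, 969 and 3024 bases between neighbours, and H2-D1 is at chr17:35263094-35267497. B2m is at chr2:122147687-122153082 and overlaps Patl2, Nlrc5 is at chr8:94434335-94527272, and Psmb10 at chr8:105935728-105938392. Library totals ran from 22504543 to 41888701 counts. CPM are counts per 1e6 of the TMM-scaled library total. Over the unscaled total, a count of 3 in a library corresponds to 0.0716 to 0.133 counts per 1e6. Of 19 striatal neuron and precursor markers, 11 could be tested and 2, Drd1 and Drd2 of mature medium spiny neurons, had 0 counts in all 9 libraries. The neuronal genes Tubb3 (84.2 to 102 CPM as line means) and Map2 (44.3 to 55.3 CPM) were present. Vim, a precursor filament gene, was abundant and Nes, another, had a mean of 399.6 CPM in control, 1086 CPM for HD-het and 7.01 CPM for HD-homo.

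In HD-homo cells all 10 genes exceeded their control level (edgeR quasi-likelihood test, Benjamini-Hochberg adjusted p below 0.05), in a comparison where 23.3% of the 12678 genes tested were higher and 22.3% lower. Median log2 change was 1.70 for the 10 genes and 0.02 for all genes tested. In HD-het cells, 6 were higher (H2-K1, H2-D1, B2m, Tap1, Tap2 and Tapbp), against 31.0% of all genes. Psmb10 was lower there, against 29.1%, and Nlrc5, Psmb8 and Psmb9 did not pass the test. The median was 0.80 in HD-het against 0.02 for all genes. Psmb9 entered the test only through the HD-homo libraries and Nlrc5 through 2 libraries of each mutant line. No control library reached the filter level for either gene. Their calls, though counted among the 10 and in the medians, are thus no support by themselves. Between the mutant lines, 5 genes were higher in HD-homo cells (Tap1, Tapbp, Psmb8, Psmb9 and Psmb10), against 34.6% of all genes, and Tap2 was lower, against 32.8%. A single test of any difference among the lines called 9 of the 10, all but Nlrc5 (edgeR, adjusted p = 0.0514), against 78.4% of all genes, so that count is near its background.

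**Figure D1:**
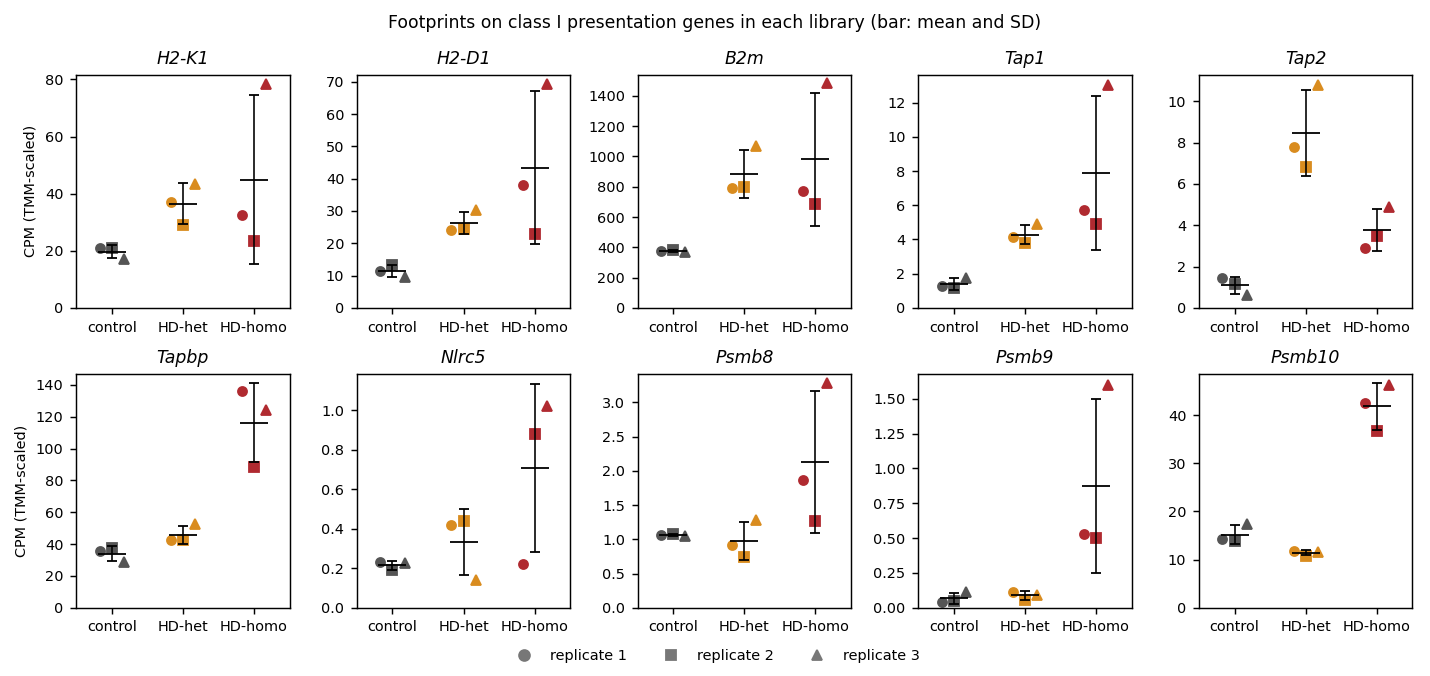
Footprint level of each gene (y axis, CPM, scaled by composition factors, from 0) in the 3 libraries of each line (x axis). Symbols mark the replicate, and horizontal bars the mean with its SD; the highest HD-homo point is replicate 3 in every panel but Tapbp, and Tap2 alone has its highest values in HD-het cells.

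The 2 classical heavy chains rose in both mutant lines. H2-K1 had 551, 880 and 459 counts in control, 978, 1062 and 916 in HD-het, and 1168, 617 and 1771 in HD-homo libraries, or 21.0, 20.9 and 17.3 CPM, 37.1, 29.2 and 43.3 CPM, and 32.5, 23.6 and 78.6 CPM. All control values lay below all mutant values, and the mutant lines overlapped each other. The log2 change was 0.88 ± 0.35 (SE, n = 3 per line) in HD-het (edgeR, adjusted p = 0.0485) and 1.18 ± 0.35 in HD-homo cells (edgeR, adjusted p = 0.0182). The HD-het call was lost when any 1 control or HD-het library was left out (edgeR, adjusted p = 0.0569 to 0.144), and the HD-homo call without control replicate 3 (edgeR, adjusted p = 0.0555). H2-D1 had 11.5, 13.3 and 9.52 CPM in control, 24.1, 24.3 and 30.2 CPM in HD-het, and 38.0, 23.02 and 69.2 CPM in HD-homo libraries. Its log2 change was 1.18 ± 0.32 in HD-het (edgeR, adjusted p = 0.00712) and 1.91 ± 0.32 in HD-homo cells (edgeR, adjusted p = 0.000500). Between the mutant lines neither passed, with log2 differences of 0.29 ± 0.35 for H2-K1 and 0.73 ± 0.30 for H2-D1 (edgeR, adjusted p = 0.470 and 0.0524), and H2-D1 passed in 3 of 17 alternative settings, among them without HD-homo replicate 2 (1.03, edgeR, adjusted p = 0.00178). Without HD-homo replicate 3 the H2-D1 difference was 0.23 (edgeR, adjusted p = 0.352).

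Heavy chain rows are near copies of each other. Of the 28-nt windows along the H2-K1 coding sequence, 35.5% also occur in some other gene and 24.1% occur in H2-D1, and of the H2-D1 windows 45.7% occur in some other gene. Counts from those stretches can fall to either row, and how the fragments were assigned is not stated. The H2-K, H2-D, H2-L, H2-Q and H2-T rows were also summed into a single feature. Its log2 change was 1.34 for HD-het and 1.37 for HD-homo (edgeR, adjusted p = 0.00353 and 0.00445). The difference between the mutant lines was 0.03 (edgeR, adjusted p = 0.934). This sum includes H2-T23, which had 832, 1102 and 799 counts in HD-het and 61, 25 and 30 in HD-homo libraries. The 0.03 is therefore not a value for H2-K1 and H2-D1 alone. The H2-K1 to H2-D1 count ratio was 1.74 ± 0.14 (SD, n = 3) in control libraries, 1.39 ± 0.18 for HD-het and 1.00 ± 0.14 for HD-homo, and the libraries of the 3 lines did not overlap. H2-L is a heavy chain row whose symbol is absent from GENCODE M21, so its windows were not checked. It kept a near-constant ratio to H2-D1 (H2-D1 over H2-L 1.69, 1.58 and 1.76 in the 3 lines). The H2-L row had log2 changes of 1.27 (HD-het) and 1.85 (HD-homo), near those of H2-D1. Whether the H2-L and H2-D1 rows are separate observations was not tested, and H2-L is counted among the other class I chains.

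B2m, the light chain that every class I molecule needs, was by far the most abundant of the 10 per coding length. It had 378, 382 and 367 CPM in control, 793, 797 and 1067 CPM in HD-het and 771, 686 and 1485 CPM in HD-homo libraries. Control values were tight, and no mutant library reached down to them. Its log2 change was 1.24 ± 0.24 in HD-het (edgeR, adjusted p = 0.00109) and 1.38 ± 0.24 in HD-homo cells (edgeR, adjusted p = 0.000783), and the mutant lines did not differ by the test (0.15 ± 0.24, edgeR, adjusted p = 0.605). No 28-nt window of B2m coding sequence occurs in another gene.

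Both transporter genes rose, Tap2 most in HD-het cells. Tap1 had 1.30, 1.14 and 1.77 CPM in control, 4.14, 3.80 and 4.92 CPM in HD-het, and 5.73, 4.89 and 13.0 CPM in HD-homo libraries. Its log2 change was 1.62 ± 0.37 in HD-het (edgeR, adjusted p = 0.00279) and 2.49 ± 0.36 in HD-homo cells (edgeR, adjusted p = 0.000174). Tap2 had 1.45, 1.17 and 0.640 CPM in control, 7.78, 6.79 and 10.8 CPM in HD-het, and 2.89, 3.48 and 4.88 CPM in HD-homo libraries, with no overlap between any lines. HD-het cells stood 2.94 ± 0.29 above control on the log2 scale (edgeR, adjusted p = 8.72e-06), HD-homo cells 1.76 ± 0.30 above control (edgeR, adjusted p = 0.000639), and HD-homo cells fell by 1.18 on the log2 scale against HD-het (SE 0.26, edgeR, adjusted p = 0.00169). HD-homo cells were thus higher than HD-het cells for Tap1 (log2 difference 0.87 ± 0.32, edgeR, adjusted p = 0.0316) and lower for Tap2. The Tap1 difference was 0.33 without HD-homo replicate 3 (edgeR, adjusted p = 0.155) and also missed the threshold without HD-het replicate 1 or 2.

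Tapbp encodes tapasin. It had 35.8, 37.2 and 28.6 CPM in control, 42.7, 42.5 and 52.5 CPM in HD-het and 136, 88.7 and 124 CPM in HD-homo libraries, with no overlap between any lines. The log2 change was 0.43 ± 0.16 in HD-het (edgeR, adjusted p = 0.0362) and 1.78 ± 0.16 in HD-homo cells (edgeR, adjusted p = 5.05e-06), and 1.34 ± 0.16 between the mutant lines (edgeR, adjusted p = 2.13e-05). The HD-het call was lost without control replicate 1 or 3 or any 1 HD-het library (edgeR, adjusted p = 0.0544 to 0.151). Nlrc5 was sparse, with 6, 8 and 6 counts in control, 11, 16 and 3 in HD-het and 8, 23 and 23 in HD-homo libraries, and the lines overlapped. Its log2 change was 1.64 ± 0.57 in HD-homo cells (edgeR, adjusted p = 0.0348), a call lost without any 1 control library, HD-homo replicate 2 or HD-homo replicate 3. Its HD-het value, 0.72 ± 0.62, did not pass (edgeR, adjusted p = 0.337). Summed counts gave an HD-homo to control ratio of 3.02, with a 95% exact interval of 1.78 to 5.33 that covers counting error only.

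HD-homo cells exceeded HD-het cells for all 3 inducible proteasome subunits, although Psmb9 entered the test only through the HD-homo libraries. Psmb10 had 373, 582 and 463 counts in control, 311, 394 and 244 in HD-het and 1531, 958 and 1043 in HD-homo libraries, or 14.2, 13.8 and 17.4 CPM, 11.8, 10.8 and 11.5 CPM, and 42.6, 36.6 and 46.3 CPM. No 2 lines overlapped. HD-het cells were lower than control by 0.41 on the log2 scale (SE 0.12, edgeR, adjusted p = 0.0122), HD-homo cells 1.47 ± 0.12 higher (edgeR, adjusted p = 1.82e-06), and HD-homo cells 1.88 ± 0.12 above HD-het cells (edgeR, adjusted p = 1.93e-07). The decrease in HD-het cells did not pass without control replicate 3, whose level was the highest of the control libraries (edgeR, adjusted p = 0.0562).

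Psmb8 had 1.07, 1.07 and 1.05 CPM in control, 0.911, 0.743 and 1.28 CPM in HD-het and 1.86, 1.26 and 3.28 CPM in HD-homo libraries. Its HD-homo change was 0.98 ± 0.32 (edgeR, adjusted p = 0.0285), and without HD-homo replicate 3 it was 0.57 and did not pass (edgeR, adjusted p = 0.115), nor did it without any 1 control library. HD-homo exceeded HD-het by 1.14 ± 0.34 (edgeR, adjusted p = 0.0102; 0.0540 without HD-het replicate 2). Psmb9 was nearly silent outside HD-homo cells. It had 1, 2 and 3 counts in control, 3, 2 and 2 in HD-het and 19, 13 and 36 in HD-homo libraries, each HD-homo library above all others. Summed counts gave an HD-homo to control ratio of 12.7 (95% exact interval 5.54 to 35.8, counting error only). The fitted log2 change was 3.63 ± 0.65 (edgeR, adjusted p = 0.000829), a call that is no support by itself because only HD-homo libraries passed the filter. Without HD-homo replicate 3 the fitted value was 2.94 (edgeR, adjusted p = 0.000671). Against HD-het the summed ratio was 9.62 (95% exact interval 4.43 to 24.8).

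**Figure D2:**
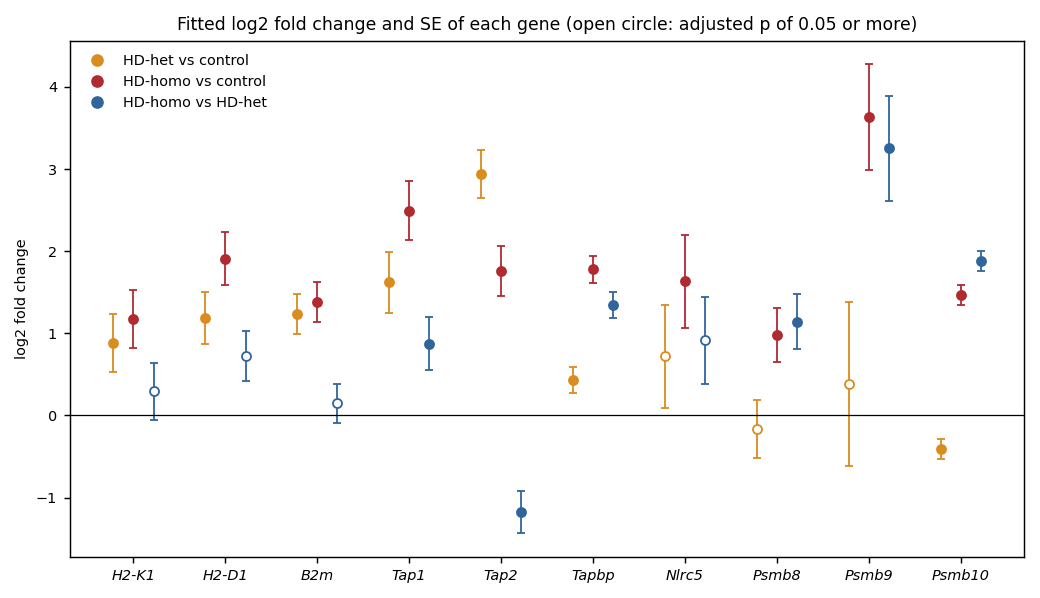
Fitted log2 fold change (y axis, points) and its SE (bars) of each gene (x axis) in the 3 comparisons, from 3 libraries per line. Filled points passed the threshold; all 10 HD-homo against control points are filled and above 0, Psmb10 lies below 0 in HD-het cells, and Tap2 below 0 in HD-homo against HD-het cells.

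HD-homo replicate 3 held the highest value of its line for 9 of the 10 genes, and for H2-K1, H2-D1, B2m, Tap1, Psmb8 and Psmb9 it stood well above the other 2. Without it, 8 genes still passed as higher than control in HD-homo cells and Nlrc5 joined Psmb8 below the threshold, at 1.27 (edgeR, adjusted p = 0.124). The H2-K1 change fell to 0.51 (edgeR, adjusted p = 0.0494) and that of B2m to 0.96 (edgeR, adjusted p = 0.000244). Tapbp, at 1.73, and Psmb10, at 1.39, changed little. Footprints on Irf9, an interferon signalling gene, were close to those of replicate 1 there, with 21.8, 14.9 and 22.2 CPM in the HD-homo libraries.

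Catalytic pairs were compared within each library as the inducible subunit's percent of the pair, per coding length, a measure that does not depend on library scaling. Psmb10 made up 4.05 ± 0.63% of its pair with Psmb7 in control (SD, n = 3), 3.37 ± 0.18% for HD-het and 8.70 ± 0.78% for HD-homo. The libraries were at 3.69, 3.67 and 4.78%, then 3.56, 3.19 and 3.36%, then 8.50, 8.03 and 9.55%, with no overlap between lines. Psmb9 was at 0.0295 ± 0.017% of its pair with Psmb6 in control, 0.0599 ± 0.020% for HD-het and 0.364 ± 0.28% for HD-homo, and all HD-homo libraries lay above the rest. Psmb8 was at 0.754 ± 0.047%, 0.744 ± 0.19% and 1.36 ± 0.81% of its pair with Psmb5, and HD-homo replicate 3 alone, at 2.30%, lay clearly apart. With 3 against 3 libraries an exact permutation test cannot give p below 0.1, and 6 of the 9 comparisons reached that lowest value (adjusted p = 0.15 over the 9), so none passed. Psmb5 fragments cannot all be placed, since 86.7% of its 28-nt windows occur in other annotated genes, Psmb5-ps among them.

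**Figure D3:**
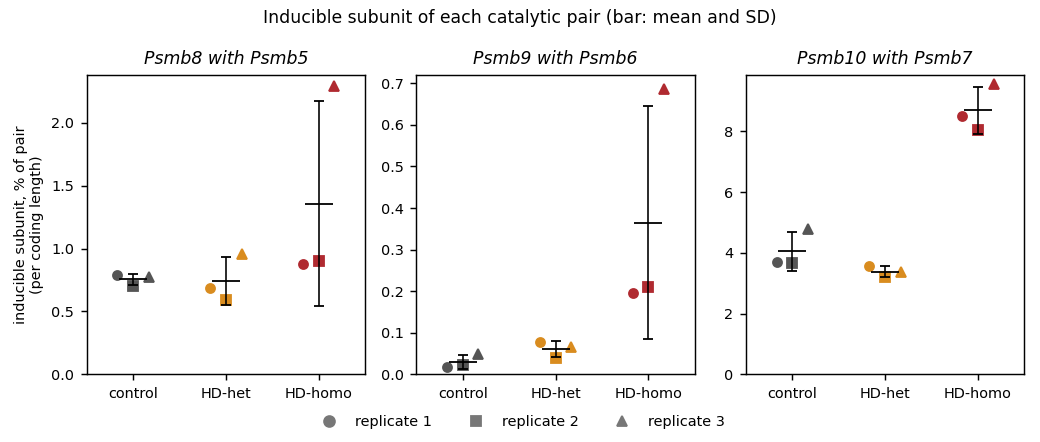
Inducible subunit as a percent of its catalytic pair per coding length (y axis, from 0) in each library (points) with mean and SD (bars) for 3 lines. Psmb10 reaches 8.03 to 9.55% in HD-homo cells, and Psmb9 stays below 0.1% in control and HD-het cells.

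Per coding kilobase, B2m led in every line, at 1044 CPM per kb in control, 2460 for HD-het and 2724 for HD-homo. Tapbp, Psmb10 and H2-K1 followed in control cells, at 24.2, 18.5 and 17.8 CPM per kb with overlapping libraries. In HD-homo cells Tapbp reached 83.1 and Psmb10 50.9 CPM per kb, and H2-K1 and H2-D1 were at 40.4 and 39.9. Libraries ran from 44.6 to 56.3 for Psmb10, 21.3 to 70.8 for H2-K1 and 21.1 to 63.6 for H2-D1, so they overlapped. Tapbp libraries, at 63.3 to 97.3, also overlapped those of the heavy chains. Nlrc5 and Psmb9 were at the bottom in all lines, and Tap2 ranked 8 of 10 in control and 6 of 10 in HD-het cells.

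Most of the other class I chains that could be tested were higher than control in both lines. Of 20 tested, 16 passed as higher and none as lower for HD-het, and 13 as higher and 1 as lower for HD-homo, and the median log2 changes were 1.61 and 1.12, against 0.02 for all genes in each comparison. The shares over all genes were 31.0% higher for HD-het and 23.3% higher for HD-homo. Between the mutant lines, 10 of the 20 were lower and 1 higher in HD-homo cells, with a median log2 difference of -0.31. Over all genes 32.8% were lower and 34.6% higher in that comparison. The H2-T9 to H2-T22 count ratio was 1.00, 1.01 and 0.995 in the 3 lines and 54.1% of the H2-T22 windows occur in H2-T10, so these rows are not separate observations. Of the chains with HD-homo means below control, only H2-T23, whose product is read by NK-cell receptors, was called lower there. It had 8.14, 8.18 and 6.13 CPM in control, 31.6, 30.3 and 37.8 CPM in HD-het and 1.70, 0.956 and 1.33 CPM in HD-homo libraries. It rose by 2.14 ± 0.16 in HD-het and fell by 2.47 in HD-homo cells on the log2 scale (SE 0.20, edgeR, adjusted p = 1.41e-06 and 1.99e-06), although 56.3% of its 28-nt windows are shared. Mr1, which presents vitamin B metabolites and was picked after its values were seen, had 0.267, 0.214 and 0.150 CPM in control, 12.3, 13.3 and 17.5 CPM in HD-het, and 0.445, 0.765 and 0.577 CPM in HD-homo libraries. H2-Q4, a Q-region chain also chosen after its values were seen, had log2 changes of 1.54 and 2.45, both called. Its HD-homo libraries ran from 3.33 to 12.8 CPM, and 41.7% of its 28-nt windows occur in other genes.

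**Figure D4:**
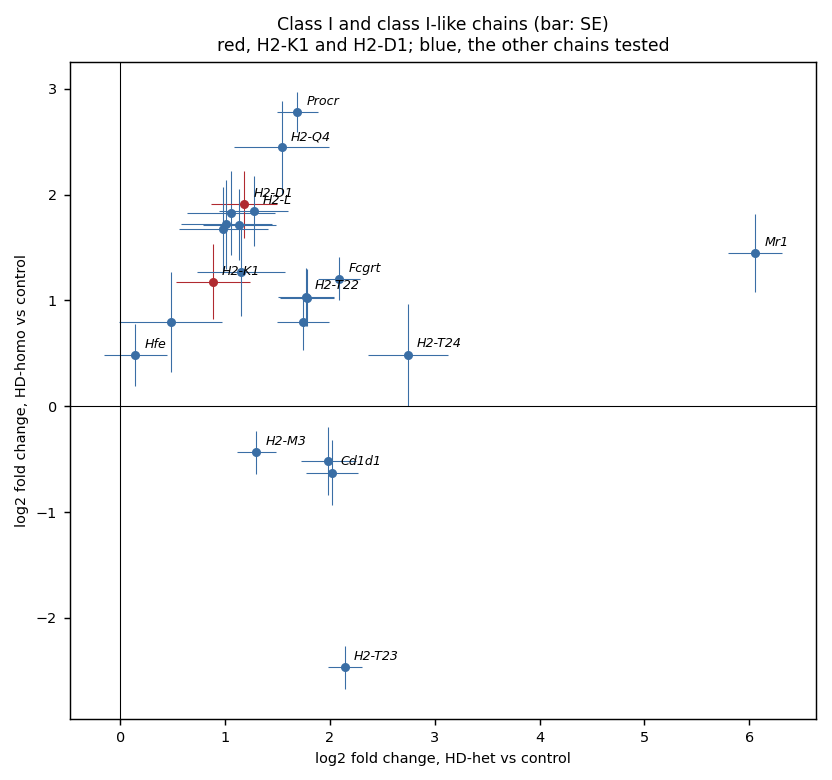
Log2 fold change against control in HD-het (x axis) and HD-homo cells (y axis), with SE, of H2-K1 and H2-D1 (red) and of the 20 other class I chains tested (blue). Both comparisons share the control libraries; H2-T23 is the one chain at right and far below 0, and Mr1 the farthest to the right.

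Partner genes of the pathway did not move as one with the 10 genes. Of 14 genes of peptide trimming and class I loading, 7 rose and 3 fell in the HD-het line, and 2 rose and 1 fell in the HD-homo line. Pdia3, Canx and Calr, chaperones of the loading complex, had log2 changes of 1.05, 0.65 and 0.50 in HD-het cells, all called, and of 0.06, -0.34 and 0.13 in HD-homo cells, none called. Erap1, the peptide-trimming aminopeptidase, was higher in both, by 1.45 and 1.00. Of the 14 standard 20S subunits, 10 fell and none rose in the HD-het line, and 1 fell and 2 rose in the HD-homo line. Over all genes 31.0% were higher and 29.1% lower for HD-het, and 23.3% and 22.3% for HD-homo. The HD-homo counts of both lists, and the 3 trimming and loading genes that fell in HD-het, lay under those shares. Psme2, a subunit of the interferon-inducible proteasome activator, had a change of 1.21 ± 0.11 in HD-homo cells (edgeR, adjusted p = 4.24e-06) and -0.05 in HD-het cells (edgeR, adjusted p = 0.700). Of the 10 tested genes of proteasome activation and assembly, Psme2 among them, none rose and 6 fell in the HD-het line. In the HD-homo line 5 rose and 1 fell. Psme3 and Pomp had log2 changes of -0.99 and -0.75 in HD-het cells, both called, and 0.17 and 0.05 in HD-homo cells, neither called.

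Among 15 tested regulators of class I transcription, 4 rose and none fell in the HD-homo line, and 2 rose and 6 fell in the HD-het line. Over all genes 23.3% were higher and 22.3% lower for HD-homo, and 31.0% and 29.1% for HD-het, so the 4 and the 6 are not far from the background. Irf9, the DNA-binding part of the interferon-stimulated complex, was higher in both lines, by 1.75 ± 0.20 and 3.47 ± 0.19. Rela and Nfkb1, subunits of NF-kappa B, had log2 changes of -0.56 and -0.49 in HD-het (both called) and 0.02 and 0.12 in HD-homo cells. Of the interferons, Ifng had 0 counts in all libraries and Ifnb1 1 count in each of 2 libraries. Ifnl2, a type III interferon, had 3.63, 0.856 and 1.88 CPM in control, 6.64, 3.49 and 3.78 CPM in HD-het, and 0.473, 0.956 and 1.06 CPM in HD-homo libraries. It was called higher in HD-het cells (1.17 ± 0.44, edgeR, adjusted p = 0.0371), with ranges that overlap control, and its HD-homo value of -1.35 ± 0.53 did not pass (edgeR, adjusted p = 0.0555). The 5 genes outside the lists most like the mean profile of the 10 were Col10a1, Mustn1, Cblb, Dtx3l and Ank1 (Pearson r 0.976 to 0.982 over 9 libraries, a description), and 189 of 12073 genes compared had r of at least 0.9.

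Of 16 microglia, macrophage and leukocyte markers, 11 had no more than 3 counts in any library, and Cx3cr1, Tyrobp and C1qa were at 0 in all. Summed over the list, control libraries had 6.96 to 9.66 CPM, HD-het libraries 22.6 to 35.5 CPM, mostly Tmem119, and HD-homo libraries 7.19 to 8.54 CPM. The HD-homo sums lay within the control range, and the part of the higher HD-het sums in the HD-het results was not tested. Of the 3 markers tested, Csf1r was called higher in HD-homo cells, and 2 were not called. Csf1r had a mean of 1.06 CPM there against 0.339 CPM in control (log2 change 1.62 ± 0.33, edgeR, adjusted p = 0.00211). The part of Csf1r in the HD-homo results was not tested. The 10 astrocyte and oligodendrocyte markers, 3 of them at 0 in all libraries, summed to 11.9 to 14.4 CPM in the HD-homo line, against 2.29 to 4.05 CPM for control and 1.75 to 3.07 CPM for HD-het. Most of the HD-homo sum was Slc1a3, a glutamate transporter, at 10.5, 12.9 and 11.6 CPM against 2.41, 1.55 and 1.05 CPM in control (log2 change 2.81 ± 0.27, edgeR, adjusted p = 7.40e-06), and its part in the HD-homo results was not tested. Gfap, the only other marker of this list that could be tested, was not called. It had a mean of 0.950 CPM in HD-homo against 1.15 CPM in control (log2 change -0.24 ± 0.23, edgeR, adjusted p = 0.410). The 7 endothelial markers summed to no more than 2.51 CPM in any library, highest in HD-het. Class II presentation genes had 5 of 13 rows that could be tested, and 6 with no more than 3 counts in any library. Of the 5, 3 rose in HD-homo cells, against 23.3% of all genes. In HD-het cells 2 rose and 2 fell, against 31.0% and 29.1% of all genes. Ifi30, a lysosomal thiol reductase, had 28.4, 29.6 and 19.7 CPM in control, 8.77, 9.08 and 11.5 CPM in HD-het and 59.8, 36.7 and 59.5 CPM in HD-homo libraries, with no overlap between lines. H60a encodes a ligand of the NK-cell receptor NKG2D. It had 5.16, 5.66 and 4.51 CPM in control, 15.2, 17.8 and 20.7 CPM in HD-het and 85.1, 85.5 and 48.2 CPM in HD-homo libraries. It stands in a list of inhibitory and activating immune ligands. Of the 10 tested, 9 were higher in HD-homo cells, against 23.3% of all genes. Related rows there may not be separate observations, since H60a and H60b had log2 changes of 3.83 and 3.85 in HD-homo cells.

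Of the 40 tested genes between H2-K1 and H2-D1 on chromosome 17 that are in no list, 23 fell and 3 rose in the HD-homo line, with a median log2 change of -0.42, against 22.3% of all genes lower and 23.3% higher. The class I genes at the ends of the interval, H2-K1 and H2-D1, and Tap1, Tap2 and Psmb8 inside it were higher. In the HD-het line 15 of the 40 fell and 9 rose, with a median of -0.25, against 29.1% lower and 31.0% higher over all genes.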

How the data were processed

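Footprint counts were used as deposited by the authors: whole numbers per gene symbol, neither normalized nor pooled over replicates. The submitters' processing notes list cutadapt, Bowtie 1.0.1 and build mm10 (GRCm38); the counting program, the annotation, the use of strand and the handling of fragments with several matches are not given in the sources used here. The 10 genes and the gene lists were chosen with earlier results of these data known.

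Counts of all 9 libraries were fitted together with edgeR 4.0.16 (R 4.3.3) by its quasi-likelihood F test on line means, with TMM factors. Genes were kept by filterByExpr (minimum count 10), and p-values were adjusted by Benjamini-Hochberg over the 12678 genes tested, at a threshold of 0.05. The SE was computed as the absolute log2 fold change over the square root of F. CPM are TMM-scaled. The fit was tested on simulated counts. Coding lengths are those of the longest RefSeq coding sequence in the GRCm38.p6 annotation. Windows of 28 nt were matched exactly to GENCODE M21 transcripts, and each promoter motif to both strands. Shares of catalytic pairs were compared by 2-sided exact permutation tests. Depth was 22504543 to 41888701 counts per library; 95% intervals and the floor of 3 counts cover counting error only, since the counts carry no molecular identifiers. Genes named beside the 10 were drawn from the pair partners and from each list's 4 tested genes of highest mean CPM. The list gene with the largest change in HD-homo cells could also be named. Not all genes that this rule allows are named, and Jak1, Ifngr1, Ifnar1, Ifnar2 and Atf1 are among those left out. Mr1, H2-Q4 and genes at or near 0 counts (Drd1, Drd2, Ifng, Ifnb1, Cx3cr1, Tyrobp and C1qa) were named outside this rule after their values were seen. Likeness was measured by Pearson r with the mean standardized log2 CPM of the 10 genes, predicted genes left out. Alternatives were RLE and total-count scaling, DESeq2 1.42.0, filters on low counts, fewer libraries, a replicate block, summed class I rows, and shares without length.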

Additional observations from a re-analysis of the deposited data

Results flagged for a closer look

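For 6 of the 10 genes the change against control differed between the mutant lines, by the test of HD-homo against HD-het cells in the shared fit (edgeR, adjusted p below 0.05). That test called 34.6% of all genes higher and 32.8% lower, so a count of 6 in 10 is no more than the background and says nothing particular about these genes. The HD-homo change minus the HD-het change, on the log2 scale, was 3.25 for Psmb9, 1.88 for Psmb10, 1.34 for Tapbp, 1.14 for Psmb8, 0.87 for Tap1 and -1.18 for Tap2. Psmb9 entered the test only through the HD-homo libraries, so its call, though counted among the 6, is no support by itself. Psmb10 was the one gene called in opposite directions in the 2 lines, and Tap2 the one gene with the larger change in HD-het cells. Groups of 3 libraries are too small for a search for single outlying libraries.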

How the results depend on the processing

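Across 17 alternative settings, 466 of 501 recomputed log2 fold changes kept their direction and their side of the threshold, 28 kept the direction and lost the call, 4 gained one and 3 changed sign. Leaving out single libraries gave 0 to 1 lower genes in HD-het cells (0 without control replicate 3) and 3 to 6 higher genes in HD-homo against HD-het cells (3 without HD-het replicate 2). Sign changes were in uncalled values. The Psmb8 change in HD-het cells ran from -0.39 to 0.0085 when single libraries were left out, the H2-K1 difference between the mutant lines from -0.37 to 0.60 and that of B2m from -0.28 to 0.35, and for the last pair the negative value came without HD-homo replicate 3. The H2-K1 call in HD-het cells was kept in 10 of 17 settings and that of Tapbp in 11 of 17; Nlrc5 in HD-homo cells was called in 10 of 15, and Psmb8 in 13 of 17. Leaving out any one control library left 7 to 8 genes higher in HD-homo cells, so the count of 10 rests on all 3. The cause was not tested.

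Replicate numbers are shared by the lines, but same-numbered libraries deviated together with correlations of only -0.36 to 0.17, so they were not treated as pairs. With replicate number as a block, 5 genes were higher and 1 lower in HD-het cells and 10 were higher in HD-homo cells; the one lost call was Tapbp in HD-het cells (log2 change 0.43, edgeR adjusted p = 0.0556). Depth limits Psmb9 and Nlrc5, which had 1 to 3 and 6 to 8 counts per control library; the filter of at least 10 counts in every library removed both.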
